A study of Polypedilum vanderplanki with 24 samples.

Results

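The comparison asked what the HaloTag/BlaR insert at the g7775 locus does to the transcriptome of Hsf1-/- Pv11 cells before trehalose is added (T0). The column of Hsf1-/-; HaloTag/BlaR cells was set against the column of Hsf1-/- cells, with each of the 17782 genes of the deposited table taken once. These are 2 of the 8 groups of the study and 6 of its 24 libraries. Pv11 cells are a culture from embryos of Polypedilum vanderplanki, a midge whose larvae survive complete drying. Poly(A) RNA of 4 such lines was sequenced, 3 libraries a group, before trehalose and once 48 h of it had passed (T48). The deposited values are the authors' mean TPM of each group (a level per gene length, scaled to the same total in every sample). No library values were used, so every level below is a group mean without an error, no difference was tested, and a ratio has no replicate check.

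In the Hsf1-/- line, AcGFP1 and the zeocin resistance gene ZeoR, joined by a P2A peptide and driven by the 121 promoter, sit in exon 1 of both copies of Hsf1. The Hsf1-/-; HaloTag/BlaR line (here HaloTag/BlaR cells) was made from it and carries the same knockout. It also carries HaloTag and BlaR, the blasticidin S resistance gene, at g7775, each placed before the stop codon behind a P2A peptide and so driven by the g7775 promoter. The study made it as the negative control of the HSF1-rescue line (Hsf1-/-; Hsf1-HaloTag/BlaR), in which Flag-tagged Hsf1 precedes HaloTag at that locus. WT is the unedited Pv11 culture. Each edited line was 1 clone grown from a sorted single cell, and the HaloTag/BlaR line had gone through a second transfection with Cas9 and guide RNA vectors, blasticidin S selection and sorting. The insert, the drug, the second cloning and chance differences between clones therefore cannot be told apart here. Nothing in the labels says whether the 3 libraries of a group came from separate cultures.

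HaloTag is a protein tag that binds a synthetic ligand covalently, which makes cells that express it visible for sorting, and a P2A peptide makes the ribosome release the upstream protein and go on to the next. HSF1 is the transcription factor that binds heat shock elements (HSEs), inverted repeats of GAA, and turns on chaperone genes in most animals. Pv11 cells survive drying when they are first incubated in trehalose, and late embryogenesis abundant (LEA) proteins, thioredoxins (Trx), isoaspartyl methyltransferases (Pimt, which repair damaged proteins), LEA island-located (Lil) proteins and heat shock proteins (Hsp) are the gene families tied to that ability. Both lines compared here lack HSF1, so a control line is wanted that differs from its parent in little else.

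The locus is shown first, because the insert that distinguishes the lines by design was placed there. g7775 has a coding sequence of 420 bases before its stop codon, which with the stop gives the 423 bases of the deposited gene, chr2:25899242-25899664 on the minus strand of assembly Pv_5.2. The guide target lies on the other strand, and the line after it gives the same 23 bases on the coding strand. Capitals mark the PAM in the first, the stop codon in the second, and in the third, which is the last 60 coding bases before the insert, the 10 bases that the guide target shares with the coding sequence.
Guide target, with PAM: ttataagattttaattatgaTGG
Site on the coding strand: ccatcataatTAAaatcttataa
End of the g7775 coding sequence: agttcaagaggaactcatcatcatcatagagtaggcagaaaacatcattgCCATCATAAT

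The message of g7775 itself was at the same level in both lines. Its mean was 48409.6 TPM in HaloTag/BlaR and 48155.5 TPM in Hsf1-/- cells at T0, a log2 ratio of 0.01, and it was the most abundant gene in both. At T48 the means were 37725.5 and 42716.3 TPM (log2 ratio -0.18). The other insert at this locus did not sit at that level, since the HSF1-rescue cells stood at 36839.9 TPM before trehalose and 12040.2 TPM in it, and WT was above all of them with 102838 and 53957.4 TPM. Log2 ratios throughout are of mean TPM + 1, HaloTag/BlaR over Hsf1-/-, which understates differences of genes at low levels.

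The gene just beyond the insert was lower. g7774, with no annotated domain, lies on the same strand 370 bp downstream of the end of g7775. It stood at 0.933 TPM in HaloTag/BlaR against 4.60 TPM in Hsf1-/- cells at T0 (log2 ratio -1.54), with 2.66 TPM in HSF1-rescue and 4.19 TPM in WT cells. In trehalose the difference was not there, with 6.61 against 6.31 TPM. On the upstream side g7776, a gene with a SET domain as found in protein methyltransferases, was at 6.69 against 3.91 TPM (0.65) at T0 and 21.9 against 23.02 TPM at T48.

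The other 8 of the 10 flanking genes were within 2-fold at T0. Farthest from 0 among them was g7780, which has the domains of the small nuclear ribonucleoprotein Lsm11, at 2.22 against 4.66 TPM (-0.81). g7772, a sugar-transporter-like gene, stood at 73.6 against 59.2 TPM (0.31), and g7778, a gene with the DNA-binding Ets domain, at 18.1 against 15.4 TPM (0.22). g7770, g7771, g7773 and g7777 lay between -0.17 and 0.12, and g7779 was listed at 0 in both lines. At T48 g7778 was the one flanking gene past 2-fold, at 69.1 against 28.7 TPM (1.24).

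**Figure D1:**
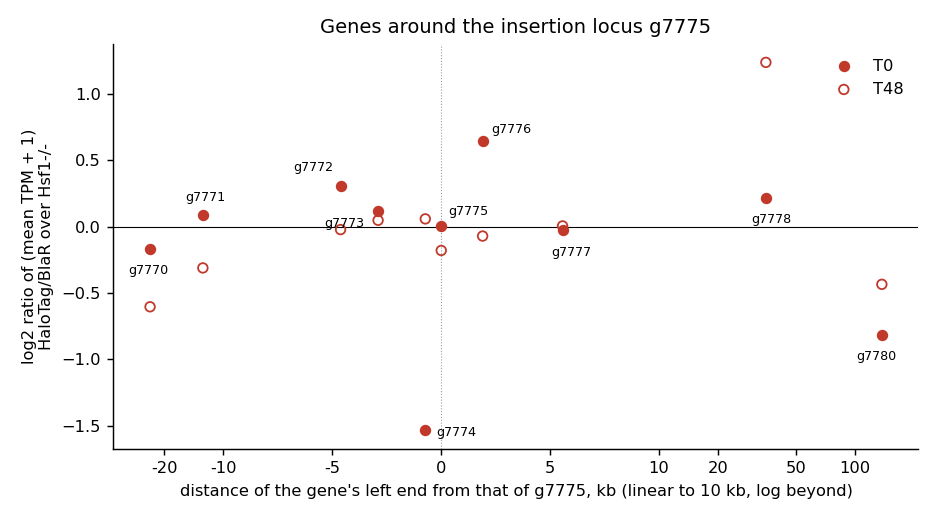
Log2 ratio of (mean TPM + 1), HaloTag/BlaR over Hsf1-/-, of g7775 and its flanking genes against the distance of each gene's left end from that of g7775 in kb (filled, T0; open, T48; g7779, listed at 0 in both lines at T0, is not drawn). At T0 g7775 is at 0.01 and g7774, its downstream neighbour, is the lowest point at -1.54; at T48 g7774 is at 0.06.

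The gene model taken as Hsf1 gave no check of the labels. Hsf1 (g3611) was listed at 0.0110 TPM in HaloTag/BlaR and 0.0271 TPM in Hsf1-/- cells, but it was also near 0 in WT (0.0863 TPM) and in HSF1-rescue cells (0.00892 TPM) at T0, and no group passed 0.307 TPM at T48. By Western blot the study found no HSF1 protein in Hsf1-/- cells and its return in the HSF1-rescue line but not in HaloTag/BlaR cells. Values near 0 for g3611 therefore do not show that a line lacks HSF1. Whether this gene model counts the Hsf1 message, inserted or native, was not tested.

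Over the whole transcriptome the lines were close. Of the 17782 genes, 7699 had at least 1 TPM in one of the lines at T0, and over these the median log2 ratio was -0.02, with 5% of genes below -0.58 and 5% above 0.43. A difference of less than 1.5-fold was seen for 7122 of them (92.5%). At least 2-fold higher in HaloTag/BlaR cells were 31 genes (0.403% of those tested for size) and at least 2-fold lower were 106 (1.38%). Most of these were weakly expressed. Among genes that reached 10 TPM in either line, 12 were 2-fold higher and 28 lower, 0.737% of 5431, against 4.28% of the 2268 genes between 1 and 10 TPM.

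The same 2 lines at T48, in separate libraries, had 1.17% of 8395 genes at least 2-fold higher and 1.5% lower. Set against the same Hsf1-/- values at T0, the HSF1-rescue cells had 4.20% of 7853 genes higher and 3.27% lower, and WT had 5.59% of 7847 higher and 13.4% lower. These last comparisons share the Hsf1-/- libraries with the one described here, so the percentages are given side by side and not as independent results.

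**Figure D2:**
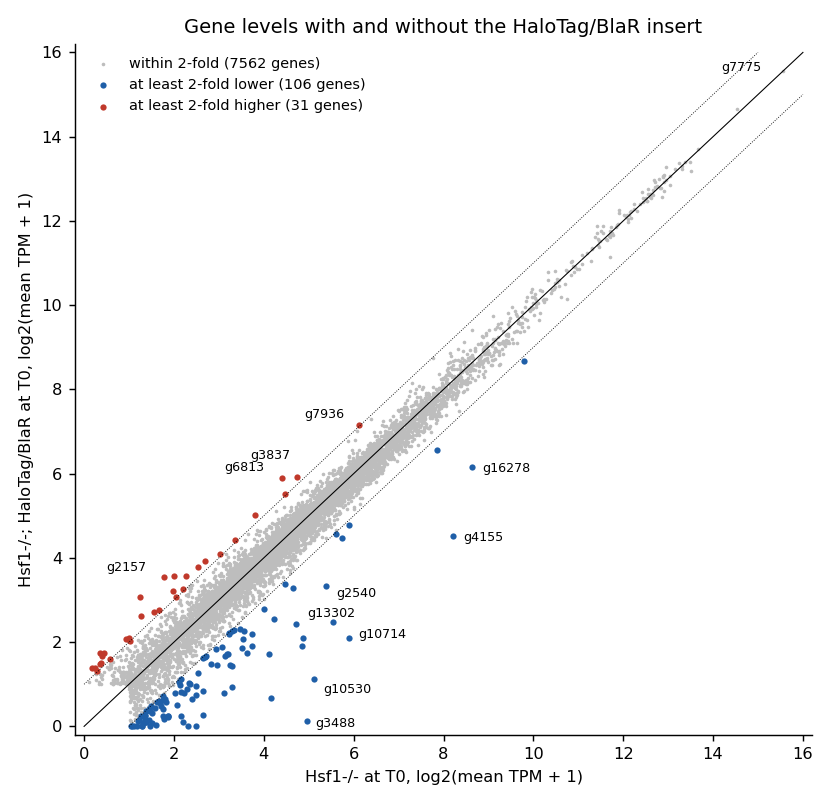
Log2(mean TPM + 1) of 7699 genes in HaloTag/BlaR cells (vertical axis) against Hsf1-/- cells (horizontal axis) at T0; the solid line marks equal levels, the dotted lines a 2-fold difference, and each point is 1 gene. The 106 lower genes (blue) outnumber the 31 higher genes (red) and reach farther from the line, down to g3488, while g7775 lies on it.

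The largest differences were among the genes lower in HaloTag/BlaR cells. g3488, an intracellular lipid-binding protein of the fatty-acid-binding family, was at 0.0870 TPM in HaloTag/BlaR and 30.0 TPM in Hsf1-/- cells (-4.83). Its level was 31.4 TPM in HSF1-rescue and 2.38 TPM in WT cells. Only the HaloTag/BlaR and WT cells thus had little of it at T0, and at T48 all lines were low, between 0.562 and 3.34 TPM.

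g10530, a fork head transcription factor, stood at 1.19 TPM in HaloTag/BlaR against 33.6 TPM in Hsf1-/- cells (-3.98). In trehalose the gap was wider, 4.98 against 193 TPM (-5.02). HSF1-rescue levels were 80.7 TPM before trehalose and 160 TPM in it, and WT had 0.0525 and 0.559 TPM. Of the 4 lines, the Hsf1-/- and HSF1-rescue lines therefore expressed this regulator and the HaloTag/BlaR line, although cloned from the first, was nearer to WT.

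A few immune genes were among the lower ones. g10714, an attacin, one of the antimicrobial peptides that insects release on infection, was at 3.26 against 58.9 TPM (-3.81), beside 12.3 TPM in HSF1-rescue and 5.21 TPM in WT cells. g8188, a defensin and so another antimicrobial peptide, was at 0.917 against 8.80 TPM (-2.35), and the peptidoglycan recognition protein g10466, of a family that detects bacterial cell walls, was listed at 0 against 1.16 TPM. Of the 2 lines compared, only Hsf1-/- cells reached 1 TPM for g8188 and g10466 at T0. The minimum thus admitted both through the line where they were high, and all these immune genes were picked after their values were seen. The family did not share one direction, since the peptidoglycan recognition gene g4895 was at 14.6 against 14.8 TPM and g6532, which stayed under 1 TPM, at 0.772 TPM against a listing at 0. At T48 g8188 stood at 3.38 against 1.97 TPM.

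A run of guanylate-binding proteins, GTPases known from mammals for interferon-induced defence, was low as a block. g16407, g16408, g16409, g16410 and g16411 lie side by side at chr4:9359496-9369835, and all 5 were past 2-fold. g16408 was listed at 0 TPM in HaloTag/BlaR against 4.59 TPM in Hsf1-/- cells, with 1.43 TPM in HSF1-rescue and 0.0710 TPM in WT. g16410 and g16411 were also listed at 0, against 1.25 and 1.44 TPM, while g16407 was at 0.171 against 2.65 TPM and g16409 at 0.364 against 2.00 TPM. All of these levels are low, and neighbouring copies may lose reads that fit more than 1 of them. In trehalose the block did not differ: its 5 genes were between 0 and 1.10 TPM in HaloTag/BlaR and between 0 and 0.552 TPM in Hsf1-/- cells. At T0 the 5 genes reached 1 TPM in only the Hsf1-/- cells of the 2 lines compared, and they were picked after their values were seen. The family members with higher levels did not go the same way, since g3474 was at 53.1 against 49.6 TPM and g360 at 16.7 against 10.6 TPM.

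g4155, a tetraspanin, a family that organises membrane proteins, was at 21.98 against 294 TPM (-3.68), with 246 TPM in HSF1-rescue and 108 TPM in WT. At T48 it was at 154 against 1006 TPM (-2.70). Its neighbour g4156, which has domains found in regulators of Rab GTPases, was at 0.0734 against 3.57 TPM.

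g167 and g170, neighbours with Kazal domains as in serine protease inhibitors, stood at 4.55 against 45.4 TPM (-3.06) and 2.73 against 27.8 TPM (-2.95). Between the T0 levels of the other lines, HSF1-rescue had 60.04 and 22.3 TPM and WT 10.9 and 2.34 TPM. At T48 g167 was listed at 0 in HaloTag/BlaR against 12.5 TPM in Hsf1-/- cells. The gene next to them, g166, which is related to secreted adenosine deaminase growth factors, was at 0.183 against 3.48 TPM, so the 3 genes of chr1:1457047-1465254 that reached 1 TPM were lower.

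g14965 and g14966, adjacent gene models that both match teneurin, a cell-surface adhesion protein, were at 3.31 against 28.1 TPM (-2.75) and 2.27 against 16.4 TPM (-2.41). They may be parts of 1 gene. Their T48 ratios were -2.85 and -2.88, and at T0 the HSF1-rescue cells had 81.0 and 50.9 TPM and WT 2.94 and 2.43 TPM. The levels of HaloTag/BlaR and WT cells were again the low ones.

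g55, a cytochrome P450 of the oxidising family that handles hormones and foreign compounds, stood at 0.582 against 16.998 TPM (-3.51), and at 1.02 against 21.7 TPM at T48 (-3.50). HSF1-rescue cells had 41.6 TPM and WT 1.25 TPM at T0. Among 42 cytochrome P450 genes of at least 1 TPM, 3 were past 2-fold lower (1.38% over all genes) and none higher, with a median of -0.07.

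g2540, a family 18 glycoside hydrolase annotated as an imaginal disc growth factor, was at 9.02 against 40.6 TPM at T0 (-2.06). Trehalose took it to 234 TPM in HaloTag/BlaR and 972 TPM in Hsf1-/- cells (-2.05), beside 976 TPM in WT and 4172 TPM in HSF1-rescue cells. Both lines thus had far more of it in trehalose, and the ratio between them was as large as before. g16278, without an annotated domain, was at 70.8 against 394 TPM (-2.46) at T0, and the Hsf1-/- cells were the high ones among the lines, since HSF1-rescue had 48.1 TPM and WT 14.8 TPM.

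Trehalose-6-phosphate synthase (Tps, g13302), the enzyme of the first step of trehalose synthesis, was the lowest of the anhydrobiosis-related genes. It was at 4.38 TPM in HaloTag/BlaR and 25.5 TPM in Hsf1-/- cells at T0 (-2.30), and at 20.6 against 58.1 TPM at T48 (-1.45). WT had 38.8 and 171 TPM and HSF1-rescue 100.4 and 302 TPM, so the HaloTag/BlaR cells had the lowest level of the 4 lines at both times. The other trehalose genes were within 2-fold. Tpp (g13300), whose phosphatase completes the synthesis, stood at 19.1 against 28.3 TPM (-0.55), trehalase (Treh, g17178), which splits the sugar, at 107 against 93.5 TPM (0.20), and the trehalose transporter Tret1 (g6534) at 226 against 170 TPM (0.41).

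Genes higher in HaloTag/BlaR cells differed by less. The 12 highest among genes reaching 10 TPM had ratios from 1.04 to 1.78, against -2.06 to -4.83 for the 12 lowest. At the top was g2157, with no annotated domain, at 10.8 TPM in HaloTag/BlaR against 2.42 TPM in Hsf1-/- cells (1.78). It had the same ratio at T48, 18.1 against 4.57 TPM. Among the lines, WT was highest at T0 (35.7 TPM) and HSF1-rescue had 4.56 TPM.

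g6813, an extracellular sulfatase of the kind that edits heparan sulfate chains, stood at 58.5 against 20.1 TPM (1.497) at T0 and 15.7 against 3.74 TPM (1.81) at T48. The HaloTag/BlaR cells were the highest line at both times, since HSF1-rescue had 8.87 and 1.03 TPM and WT 13.3 and 1.82 TPM. The same order held for g4430, a gene with the extracellular domains of insulin-type growth factor receptors, at 31.4 TPM in HaloTag/BlaR, 13.0 TPM in Hsf1-/-, 3.16 TPM in WT and 2.15 TPM in HSF1-rescue cells at T0. Its ratio was 1.21 at T0 and 0.89 at T48.

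g3837, a Bax inhibitor-1 family gene whose best matches are lifeguard proteins, which in mammals restrain cell death, stood at 59.4 against 25.7 TPM (1.18) at T0 and 384 against 184 TPM (1.06) at T48. Both lines were below the lines with HSF1, at 129 TPM in WT and 154 TPM in HSF1-rescue cells at T0.

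Neighbouring genes appeared together here too. g7935 and g7936, about which the annotation says nothing, stood at 44.7 against 21.2 TPM and 141 against 68.2 TPM, both with a ratio of 1.04. g7938, a GADD45 family gene of the DNA damage and stress response, was at 8.21 against 2.92 TPM (1.23). It was not directly beside that pair in the order of expressed genes. All 3 were also higher in trehalose, where g7936 reached 1057 against 477 TPM. g6857, without an annotated domain, was at 10.9 against 3.84 TPM (1.30). g10697, a C2 domain gene, stood at 12.8 against 4.83 TPM (1.24), and g16321, without an annotated domain, at 20.4 against 9.30 TPM (1.06).

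**Figure D3:**
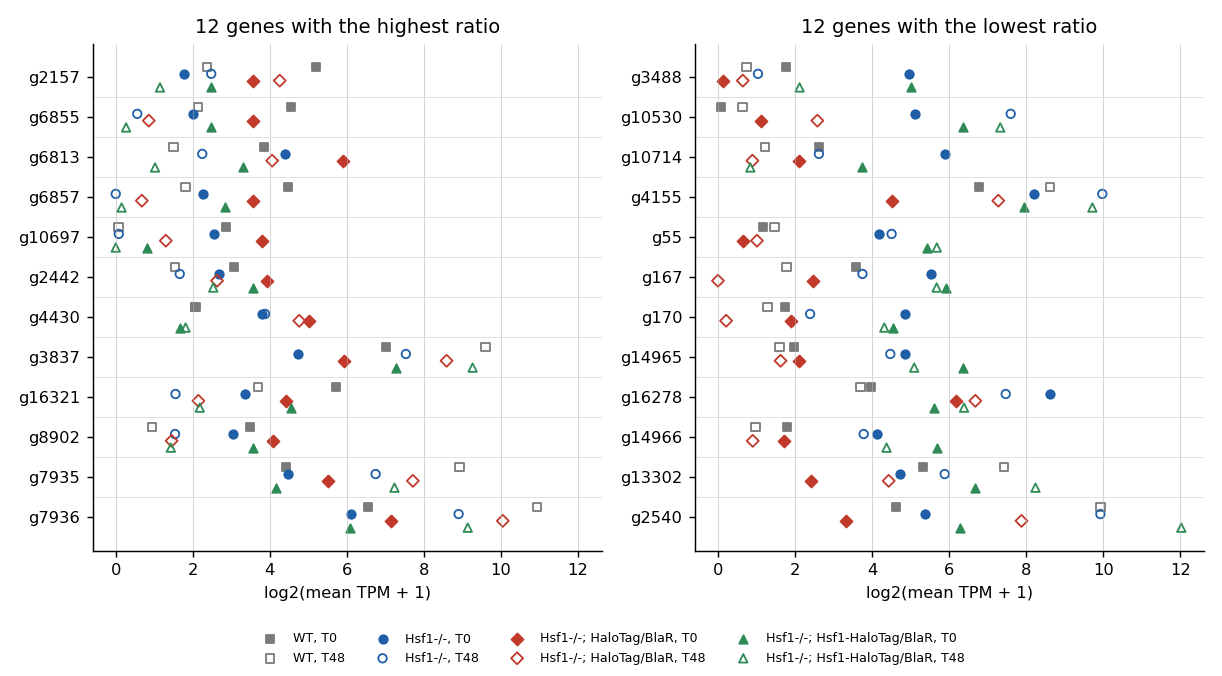
Log2(mean TPM + 1) in the 4 lines at T0 (filled) and T48 (open) for the 12 genes with the highest (left) and the 12 with the lowest (right) ratio of HaloTag/BlaR over Hsf1-/- at T0 among genes of at least 10 TPM in either; each symbol is 1 group mean, with no error. For g10530 the HaloTag/BlaR and WT symbols lie at the low end (1.19 and 0.0525 TPM at T0) and those of Hsf1-/- and HSF1-rescue cells at the high end (33.6 and 80.7 TPM), and g13302 is lowest in HaloTag/BlaR cells.

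Over the 106 lower genes the median level at T0 was 0.749 TPM in HaloTag/BlaR, 4.22 TPM in Hsf1-/-, 3.36 TPM in HSF1-rescue and 1.27 TPM in WT cells. Over the 31 higher genes it was 7.41, 2.17, 3.51 and 5.26 TPM in the same order. The values of the first pair of lines chose these genes and are a description, and those of HSF1-rescue and WT cells were not used in the choice.

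Libraries taken in trehalose, which had no part in choosing the genes, mostly gave the same sign. Of the 106 genes lower at T0, 78 were lower at T48 too, 35 of them at least 2-fold, and none was 2-fold higher. Of the 31 higher genes, 24 were higher at T48, 8 of them at least 2-fold, and 2 were at least 2-fold lower. The median T48 ratio was -0.58 for the lower and 0.70 for the higher genes, beside 0.01 over all 7699 genes, of which 48.9% were below 0 and 51.0% above 0 at T48. Where the T0 level reached 10 TPM, 25 of 28 lower genes (14 at least 2-fold) and 11 of 12 higher genes (5 at least 2-fold) had the same sign. Across all 7699 genes, which are not independent of each other, the T0 and T48 ratios had a Pearson correlation of 0.35.

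Some genes stood out at one time only. g943, a lipase, had the highest ratio of all (1.83, 7.41 against 1.36 TPM) at T0 and 0.142 against 0.137 TPM at T48. g3488 was near 0 in both lines at T48, and g8510, a histone H2B gene, was at 1.48 against 0.229 TPM at T0 but 1.70 against 4.85 TPM at T48.

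**Figure D4:**
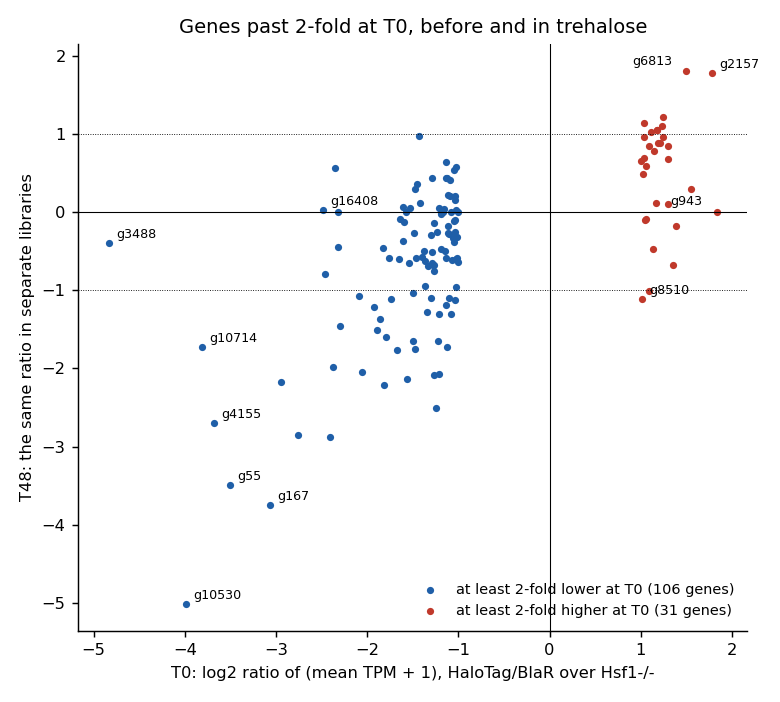
Log2 ratio of (mean TPM + 1), HaloTag/BlaR over Hsf1-/-, at T48 (vertical) against T0 (horizontal) for the 137 genes past 2-fold at T0; dotted lines mark 2-fold at T48 and each point is 1 gene. Most of the 106 lower genes (78) lie below 0 at T48 and most of the 31 higher genes (24) above it, with g10530 lowest at T48 (-5.02).

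The families of anhydrobiosis-related genes were mostly within 2-fold. Lea genes were lower on balance: of 27 listed genes 18 reached 1 TPM, 16 of them had ratios below 0 and the median was -0.26, beside -0.02 and 53.3% below 0 over all genes. The most abundant, g16204, was at 9356.5 against 11641.0 TPM (-0.32). g16194 was past 2-fold, at 405 against 891 TPM (-1.14), and highest in ratio was g16205, which matches PvLEA5, at 3015 against 2778 TPM (0.12). In trehalose g16194 was at 1325 against 1991 TPM, and the median of the family was -0.09.

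All 14 Pimt genes reached 1 TPM and 13 were below 0, with a median of -0.38 at T0 and -0.11 at T48. g16355 was at 3.79 against 10.7 TPM (-1.29), the most abundant gene g16351 at 80.9 against 101 TPM (-0.31), and g16356 was the exception at 50.6 against 44.4 TPM (0.19). The summed level of the family was 365 TPM in HaloTag/BlaR against 457 TPM in Hsf1-/- cells.

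Trx, Lil and Hsp genes had medians nearer to 0. Of the 25 Trx genes 11 reached 1 TPM, with a median of -0.14 and ratios from -0.95 (g15788, 2.56 against 5.89 TPM) to 1.16 (g17500, 1.63 against 0.176 TPM), while the abundant g11995 was at 1132 against 1201 TPM. Lil genes had a median of -0.03 over 11 of 13, which was above 0 after median-of-ratios scaling, with g16168 (1.45 against 0.780 TPM, 0.46) and g16186 (22.4 against 34.2 TPM, -0.59) at the ends and g16190 as the most abundant (751 against 688 TPM). Of the 49 Hsp genes 46 were in the table, 36 reached 1 TPM and none was past 2-fold, with a median of -0.06. The most abundant was the Hsp70 gene g11137, at 9922.8 against 7882.3 TPM (0.33), and the extremes were the Hsp20 gene g10585 (6.51 against 4.04 TPM, 0.57) and the Hsp10 chaperonin g6689 (329 against 471 TPM, -0.52). Near-identical copies within these families can lose reads that fit more than 1 gene, so single levels are uncertain.

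Subunits of the proteasome, the complex that degrades tagged proteins, were lower together by a small amount. All 15 genes of the core complex that reached 1 TPM had ratios below 0, from -0.50 (g7161, 383 against 543 TPM) to -0.04 (g9583, 16.99 against 17.5 TPM), with a median of -0.34 and a summed level of 6027.3 against 7702.9 TPM. None was past 2-fold. At T48 all 15 were again below 0, with a median of -0.25. For proteasome regulatory subunits, a list drawn up afterwards, 17 of 21 were below 0 at T0 (median -0.21) and 18 of 21 at T48 (median -0.22).

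Histone genes were higher on balance. Of 82 nucleosome genes of at least 1 TPM, 57 were above 0 at T0, with a median of 0.16, whereas 53.3% of all genes were below 0. Past 2-fold higher were 4 of the 82, beside 0.403% over all genes. At T48 60 were above 0 (median 0.20), beside 51.0% over all genes. By class, in lists drawn up afterwards, all 14 histone H4 genes that reached 1 TPM were above 0 (median 0.54). g2448 among them also has the domains of DNA ligase 4. Under 1 TPM, g2440 (0 against 0.880 TPM) and g8327 (0.319 against 0.963 TPM) were lower and g8326 (0.847 against 0.575 TPM) was higher. The H4 list summed to 658 against 462 TPM, of which g6809 made up 400 against 281 TPM. Of 12 genes with the linker histone H1/H5 domain, 10 were above 0 (median 0.43). g1009 and g11471 of these 12 are enzymes by their other domains. H2A, H2B and H3 genes had medians of 0.07, 0.04 and 0.06. g8902, an H4 gene, stood at 15.95 against 7.17 TPM (1.05), and g2442, an H1 gene, at 14.3 against 5.46 TPM (1.24). At T48 10 of the 14 H4 genes and 11 of the 12 H1/H5 domain genes were above 0. The libraries were made from poly(A) RNA, whereas most replication-dependent histone messages of animals have no poly(A) tail, and the many similar copies can lose shared reads.

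The translation machinery was close to equal. Ribosomal proteins had a median of -0.07 over 122 genes and elongation factors 0.12 over 9, none past 2-fold, and the most abundant elongation factor gene, g10339 (EF1A), was at 25899.2 against 23846.9 TPM (0.12). The ribosomal protein genes g556 (13420.8 against 13080.4 TPM), g2519 (10766.3 against 10603.1 TPM) and g11608, whose product also carries ubiquitin (10865.9 against 11510.6 TPM), were within 0.08 of 0. Genes of unfolded protein binding were lower on balance, with a median of -0.12 and 23 of 27 below 0. Over all genes the median was -0.02, with 53.3% below 0.

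Of the remaining lists from GO terms, DNA replication (median 0.06 over 40 genes), DNA repair (0.01 over 55), aminoacyl-tRNA ligases (0.01 over 34), ubiquitin-protein transferases (0.05 over 30), signal transduction (-0.03 over 75) and cell redox homeostasis (-0.08 over 40) had no gene past 2-fold lower, and g17500 was their only gene past 2-fold higher. Single genes past 2-fold lower were seen among sequence-specific transcription factors (1 of 79, g10530), oxidoreductases (1 of 126), protein kinases (1 of 168), heme binding (3 of 52), transmembrane transport (4 of 128), serine-type endopeptidases (2 of 41), ion channels (1 of 13) and odorant receptors (1 of 4). The share over all genes was 1.38%, and a single gene of 79, 126 or 168 is no more than that. None of these lists had a gene past 2-fold higher, and their medians lay between -0.21 and 0.06. Cell adhesion (0.13 over 13), cuticle structure (0.07 over 8) and DNA integration (0.03 over 6) had no gene past 2-fold.

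**Figure D5:**
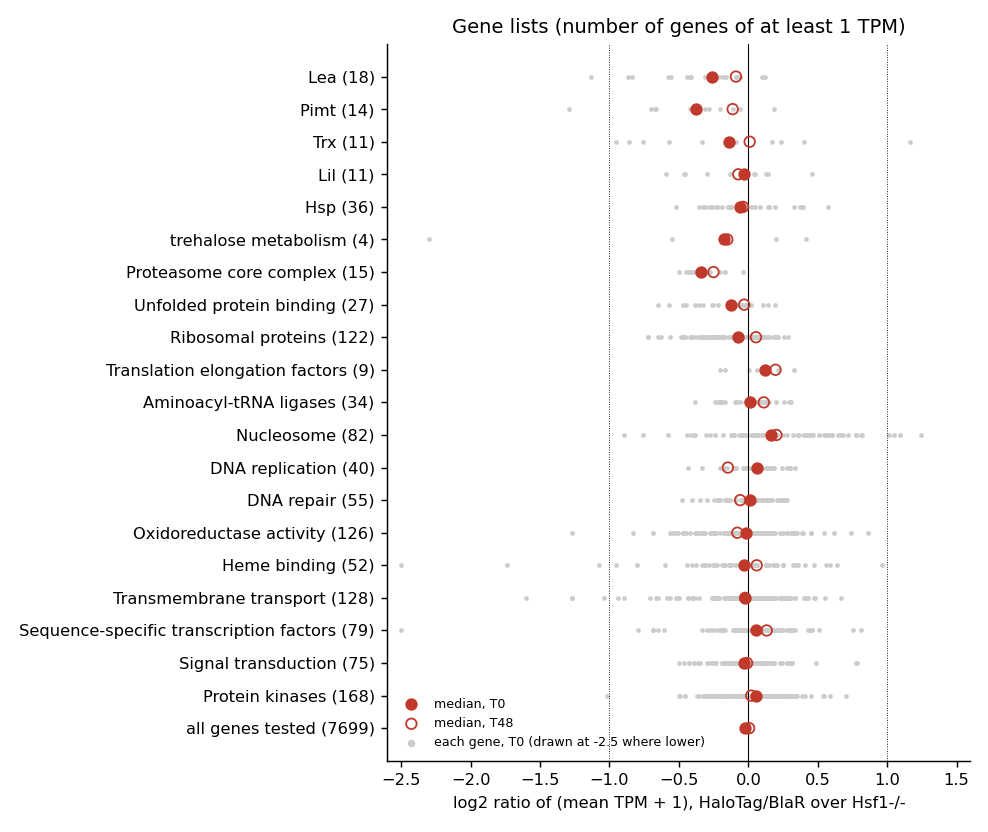
Log2 ratio of (mean TPM + 1), HaloTag/BlaR over Hsf1-/-, for 20 gene lists and all genes: grey points are single genes at T0, filled circles the list median at T0 and open circles that at T48 over the same genes, with the number of genes in brackets. The proteasome core complex (-0.34) and Pimt (-0.38) have the lowest medians at T0 and the nucleosome list (0.16) the highest, and most medians lie near that of all genes (-0.02).

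Markers of other cell types that an embryo-derived culture could hold were looked up by their descriptions. The 34 genes found for muscle summed to 202 TPM in HaloTag/BlaR and 201 TPM in Hsf1-/- cells, but most of that sum came from genes that are not muscle-specific by their domains, such as the LETM1-like g11425 (45.3 against 50.5 TPM). g12034, with the head and tail domains of a myosin heavy chain, was alone in the list past 2-fold, at 0.739 against 3.05 TPM (-1.22) at T0 and 5.13 against 18.2 TPM at T48. The titin-domain gene g7449 was level, at 0.631 against 0.621 TPM at T0. The tropomyosin gene g11464 was at 0 against 0.0331 TPM, and the troponin genes g1973 and g13368 were listed at 0 in both lines at T0. Of the other lists, 43 neuronal genes summed to 99.0 and 86.8 TPM, and 11 haemocyte genes to 0.369 and 0.312 TPM. Most of the neuronal sum was g11735 (87.5 and 74.2 TPM), which has a synaptotagmin-like mitochondrial-lipid-binding domain. Most other genes of the neuronal list were at or near 0 in both lines. The pattern for globins, typical of chironomid fat body and haemolymph, matched 29 genes. They summed to 447 against 237 TPM, nearly all of it from the globin g6089 (427 against 218 TPM, 0.97). At T48 they summed to 29.6 against 27.9 TPM. Most of that came from g9799 (19.3 TPM in both lines), which has a nitrogen permease regulator domain and no globin domain, while g6089 was at 8.89 against 7.36 TPM. No description matched the cuticle pattern. In bulk RNA fewer cells of a type and less RNA per cell cannot be told apart, and the part of the globin and myosin differences in the other results was not tested.

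Genes past 2-fold lay on all 4 chromosomes, in unequal shares. Higher genes were 0.470% of tested genes on chromosome 1, 0.482% on 2, 0.156% on 3 and 0.772% on 4. Lower genes were 1.41% of tested genes on chromosome 1, 0.876% on 2, 1.29% on 3 and 2.76% on 4, and the chromosome medians lay between -0.03 and -0.01. In runs of 50 neighbouring expressed genes the median ranged from -0.22 to 0.13. The lowest run, chr4:9106029-9420909, holds 13 Pimt genes and the guanylate-binding block, and at T48 its median was 0.02. Of 105 lower genes on the 4 chromosomes, 28 (26.7%), in 12 runs, lay directly beside another in the order of expressed genes. Among the 31 higher genes, 6 (19.4%) lay in 3 such runs. What share genes placed without regard to position would reach was not tested.

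A predicted HSE within 1000 bp around the start site was listed for 28.6% of the 7699 genes, for 29 of the 106 lower genes (27.4%) and for 16 of the 31 higher genes (51.6%). Both lines lack HSF1, so these are annotations and no test of its action. With matches of FIMO p under 0.00001 alone, the shares were 2.88%, 3.77% and 6.45%, the last being 2 genes. The deposited matches to the JASPAR motif MA0486.2 of g7775 and of 3 higher genes are shown, with GAA and its complement TTC in capitals.
g7775: ttagaGAAttTTC
g3837: TTCtaGAActctc
g7936: tccccGAAcaTTC
g6813: gtcccgcacgTTC
The match of g3837 had the lowest FIMO p of the 4 (1.07e-05) and that of g6813 the highest (9.65e-05), with 3.44e-05 for g7775 and 2.70e-05 for g7936. A match is a description of letters in this window, not a measured site.

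Genes listed at 0 in one line alone were at low levels in the other. There were 819 listed at 0 in HaloTag/BlaR only and 703 in Hsf1-/- only, out of 10969 genes above 0 in at least one of the lines. After g16408, the highest in Hsf1-/- cells among the first were g11944 (3.99 TPM) and g10113, a chromo domain gene (1.75 TPM, and at T48 4.81 against 3.52 TPM). The highest in HaloTag/BlaR cells among the second did not reach 1 TPM: g8173 (0.882 TPM), g17729 (0.873 TPM) and the peptidoglycan recognition gene g6532 (0.772 TPM).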

How the data were processed

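RNA was prepared from 24 libraries of 4 Pv11 lines (NEBNext poly(A) isolation and Ultra II kits), and 6 of them, the HaloTag/BlaR and Hsf1-/- groups at T0, are compared here. The authors aligned the reads with HISAT2, sorted them with SAMtools 1.9, marked duplicates with Picard and counted them with HTSeq 0.6.0, without the reads that could belong to several genes or sites. The authors converted the counts to TPM, scaled by gene length, and the deposited value is the average TPM over the 3 libraries of a group. The deposited table also gives gene positions (Pv_5.2), annotation, FIMO matches of 5 HSF motifs with scores and p-values, and cluster numbers from the authors' own comparisons, which were not used. Start positions counted from 0 and 1 was added. TPM keeps no depth, and depth is not given in the deposited table.

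Limma had been planned for library values. The deposited values are group means, so no test was run, and TPM by library in the study's supplement was not used here. Each of 17782 genes was taken once from 25248 lines. A gene was counted when its mean TPM reached 1 in either line, and was past 2-fold when log2(TPM + 1) differed by at least 1. The count was tested on simulated data with 200 changed genes. Alternatives were pseudocounts of 0.1 and 0.01, no minimum and a minimum of 5 TPM, median-of-ratios scaling, TPM without the 10 most abundant genes, runs of 25 and 100 genes and a stricter HSE limit.

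Genes named by rule were Hsf1, g7775 and 5 genes on each side, the 12 highest and 12 lowest ratios at 10 TPM or more, the 5 most abundant, the ends and the most abundant of each of 6 families, and the 3 highest genes listed at 0 in one line. Other genes were named after their values were seen. The comparison, lists and rule were chosen with earlier results of these data known. Families are those of the study, 22 lists came from GO terms and 5 marker lists from descriptions, and lists by InterPro term were added after seeing the data. Sequences of the locus are from the study's supplementary sequence files. Python 3 with pandas was used.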

Additional observations from a re-analysis of the deposited data

How the results depend on the processing

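No paired analysis was possible because the table analysed is one of group means without replicate numbers, and for the same reason no replicate could be left out. The study's supplement lists TPM by library, which was not used here. Counts of genes past 2-fold depended on how low levels were treated. They were 87 higher and 201 lower with a pseudocount of 0.1, 96 and 207 with 0.01, and 19 and 48 with a minimum of 5 TPM, against 31 and 106. Of 62 named genes 31 were past 2-fold, and all 31 stayed so under the other pseudocounts and scalings where a value could be had. Requiring 2-fold at T48 as well took the genes with the same direction from 102 to 43, and a pseudocount of 0.1 to 190. Median-of-ratios scaling moved the median over all genes from -0.02 to 0.01, a shift of 0.04. Without a minimum, medians went to 0.0081 for cell adhesion, 0.11 for globins, -0.0087 for muscle and -0.017 for odorant receptors. With a minimum of 5 TPM they were -0.17 for DNA integration, 0.014 for neuronal genes, -1.36 for odorant receptors (1 gene) and -0.33 for Trx, and without the 10 most abundant genes DNA integration was at 0.13. Lists added after seeing the data had unstable medians at low levels: guanylate-binding proteins (-1.17) ranged from -3.87 with a pseudocount of 0.01 to 0.35 with a minimum of 5 TPM, and the antimicrobial list (-1.11) from -3.25 to -0.11 without a minimum. Runs of 25 genes reached -0.41. With the stricter FIMO limit the shares with an HSF motif match were 6.45% of higher and 3.77% of lower genes. Of 186 medians of the other lists, 9, all given here, moved by over 0.1.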
